A study of Mus musculus with 8 samples.

Results

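Aminoacyl-tRNA synthetases are the enzymes that attach each amino acid to its transfer RNA (tRNA). The genes described here were the 37 rows of the deposited count table, of 39179 genes in all, whose symbol names such an enzyme or a subunit of one. Symbols that end in 2 were taken as the mitochondrial class (17 genes) and the others as the cytosolic class (20 genes). All 37 had enough counts to be tested.

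PolyA RNA was sequenced from epithelial cancer cells of the mouse pancreas that carry a green fluorescent label and had shared a culture with pancreatic stellate cells that carry a red one. One arm received an antibody that neutralizes sonic hedgehog (SHH) at 20 µg/mL, and the other arm received no antibody. Both arms held 4 libraries, grown in 0.5% dialyzed serum for 72 h, and the labels call the 4 biological replicates. The question is how neutralizing SHH, a secreted ligand, alters gene expression in the cancer cells while stellate cells are present. Cells of both arms came from an FVB/B6 mix and carried p48Cre, ROSA_rtTAL+ and p53L+ among their alleles, which the arms share. Cre in such mice is driven by the p48 promoter of the pancreas. The sources used here give neither doxycycline, the drug that activates rtTA, nor the number of tumour lines. The labels name no control antibody. Only cells sorted as green were sequenced.

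Cells hold separate sets of synthetases for the cytosol and for mitochondria, both encoded in the nucleus. Several cytosolic enzymes sit together in the multi-synthetase complex. When amino acids run short, uncharged tRNA activates the kinase GCN2, translation of the transcription factor ATF4 goes up, and ATF4 induces amino acid transporters, amino acid synthesis enzymes and many cytosolic synthetases.

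Libraries held 14953255 to 15733280 counts with antibody and 10009711 to 14602784 without. Replicate 1 without antibody stood apart from the other libraries of its arm, at 9.26 to 11.2 against them by chi-square divided by its degrees of freedom, and replicate 4 differed from replicates 2 and 3 by 4.61 and 3.93. Other pairs within an arm lay between 1.72 and 3.70. Epithelial markers, summed over 8 genes, stood at 7326 to 7832 CPM (counts relative to the library's total) with antibody and 6716 to 7808 CPM without. Summed over 12 genes, stellate or fibroblast markers stood at 25.9 to 52.7 CPM with antibody and 26.2 to 46.3 CPM without, with Dcn and Lum at 0 in every library. Single markers moved within these sums. Epcam, an epithelial adhesion protein, rose (log2 fold change 0.28 ± 0.077, adjusted p = 0.022 in edgeR's quasi-likelihood test), and Pdgfra, a receptor of fibroblasts, fell to 2.15 to 3.18 CPM with antibody, against 3.81 to 5.84 CPM without (-0.84 ± 0.171, adjusted p = 0.00271). Col1a1 and Col3a1 stood at 0.36 and 0.66 on the log2 scale and did not pass (adjusted p = 0.169 and 0.156). The part of these markers in the synthetase results was not tested. Leukocyte markers (5 genes) were at 4.75 to 6.55 CPM and 4.66 to 6.19 CPM, endothelial markers (4 genes) at 12.9 to 14.2 CPM and 11.1 to 12.9 CPM, and acinar markers (5 genes) at 0.130 to 0.381 CPM and 0.154 to 0.469 CPM, with and without antibody.

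Part of the cytosolic synthetase transcripts fell in the antibody arm, while 1 mitochondrial transcript rose. Of the 20 cytosolic genes, 9 fell and 0 rose at an adjusted p under 0.05 in edgeR's quasi-likelihood test, where 3.87% of all 13626 tested genes fell and 4.53% rose. The 9 were Cars, Mars, Sars, Yars, Gars, Iars, Lars, Nars and Aars. The median log2 fold change, antibody over no antibody, was -0.18 over the cytosolic class, with a range of -0.36 to 0.01, and -0.00 over all tested genes. It was negative for 19 of the 20, and the exception was Hars. Of the 17 mitochondrial genes 0 fell and 1, Lars2, rose. Without adjustment, 2 of them had a p under 0.05 in the lower direction, and DESeq2 and limma voom also called 0 of the 17 lower. Their median was -0.04, with 12 negative and 5 positive values. The difference between the classes was not tested. In bulk RNA of a sorted population, fewer cells with a transcript and less of it per cell cannot be told apart.

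Separation of the arms followed the same division. In 10 of the 20 cytosolic genes every antibody library lay below every library without antibody, which held for 6.56% of all tested genes. These were the 9 that fell and Farsb. Among the 17 mitochondrial genes the antibody libraries were all below the others in 1, Sars2, and all above them in 1, Lars2, where 7.71% of all tested genes had the antibody libraries all above.

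**Figure D1:**
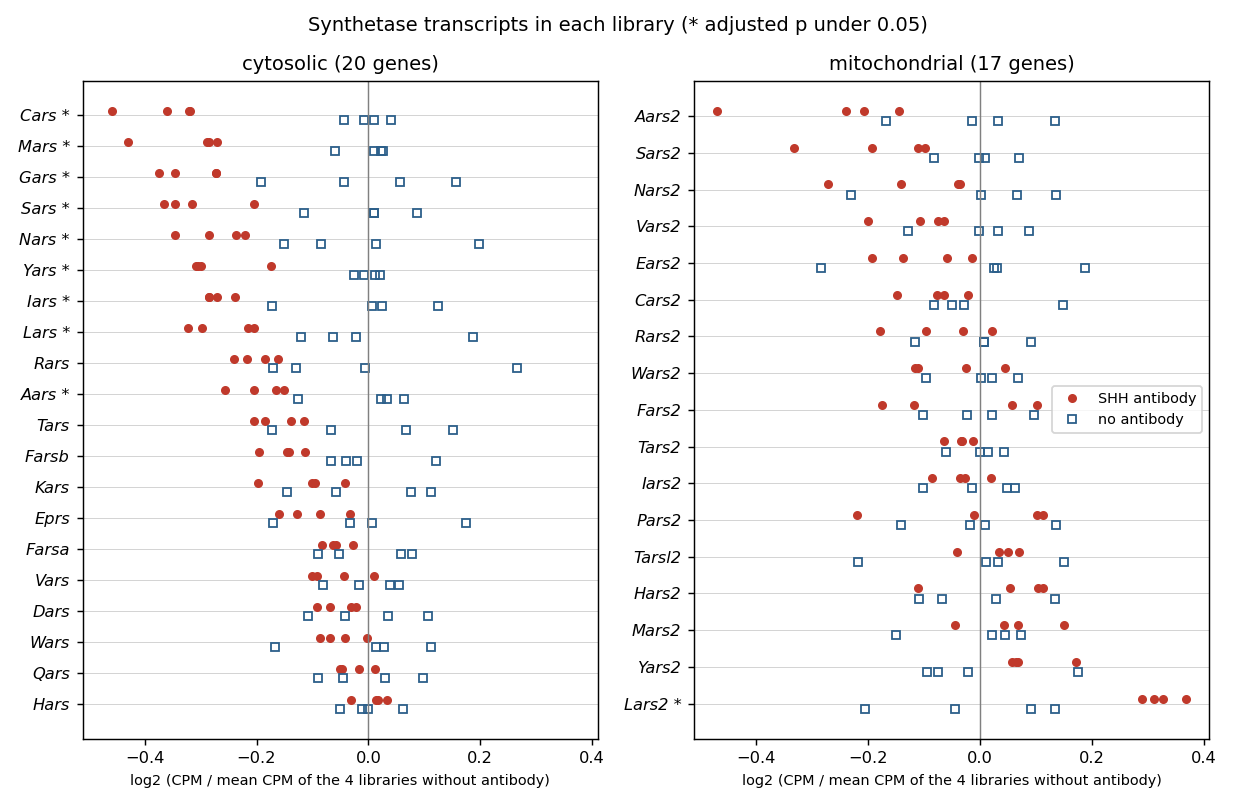
Each point is a library, placed by the log2 ratio of its CPM to the mean CPM of the 4 libraries without antibody, for the 20 cytosolic genes (left) and the 17 mitochondrial genes (right); filled circles are SHH antibody, open squares no antibody, and an asterisk marks an adjusted p under 0.05. Cars to Lars have all filled circles left of all open squares, and Lars2 has them all to the right.

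Levels per length differed widely between the classes. In libraries without antibody the mean RPKM (reads scaled to gene length and library total) of cytosolic genes ran between 15.8 for Yars and 263.6 for Nars, with a median of 61.5, and those of mitochondrial genes between 2.16 for Ears2 and 192.7 for Lars2, with a median of 6.67. With Lars2 set aside, the highest mitochondrial gene was Vars2 at 21.1 RPKM. The lowest count of any library was 951 in the cytosolic class, for Yars, and 78 in the mitochondrial class, for Pars2. The median standard error of the log2 fold change was accordingly 0.051 over cytosolic genes and 0.080 over mitochondrial genes, so a change of a given size was harder to call in the mitochondrial class.

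**Figure D2:**
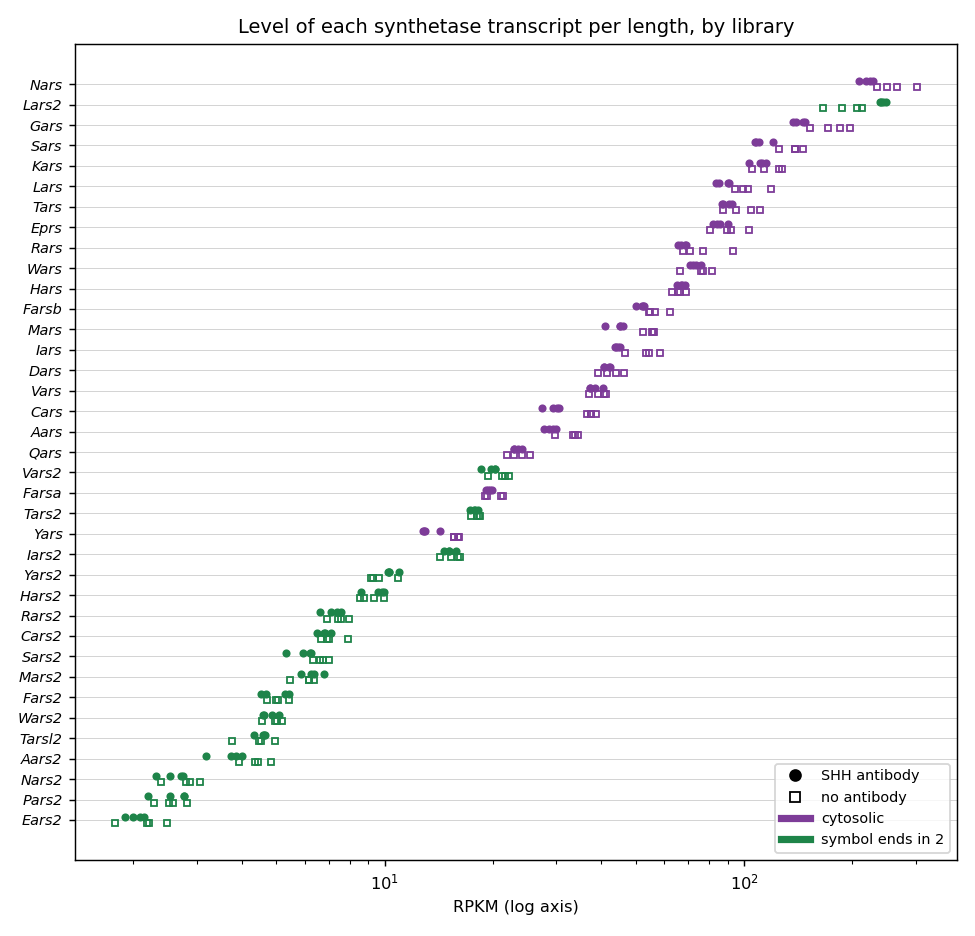
RPKM of each of the 37 genes in each library on a log axis, ordered by the mean without antibody; filled circles are SHH antibody, open squares no antibody, purple marks cytosolic genes and green marks symbols that end in 2. Lars2, at 192.7 RPKM without antibody, sits among the highest cytosolic genes, while the other green genes lie at 21.1 RPKM or below.

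Cars, which charges cysteine and lies at chr7:143557230-143600090 on the minus strand (GRCm38), had the smallest p of the 37. It had 140.2, 127, 136 and 140.3 CPM in antibody libraries 1 to 4, against 176, 174, 169.8 and 179.9 CPM in libraries 1 to 4 without antibody. Every antibody library was well below the lowest library of the other arm. The log2 fold change was -0.36 ± 0.047 (SE, n = 4 each), with an adjusted p of 2.14e-05 in edgeR's quasi-likelihood test with Benjamini-Hochberg adjustment over all tested genes, as for every adjusted p that follows. Mars, which charges methionine for starting proteins as well as extending them, had 157, 140.1, 155 and 155 CPM with antibody, against 181, 192, 190.1 and 192 CPM without. Antibody replicate 2 was the lowest of the 8 libraries, and the arms did not overlap (log2 fold change -0.32 ± 0.048, adjusted p = 0.000139). Part of the gene, 68 bases at its 3′ end, lies opposite Ddit3, an ATF4 target that fell as well (log2 fold change -0.57 ± 0.079, adjusted p = 5.03e-05). The sources used here do not say whether the counting kept the strands apart.

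Sars, the enzyme for serine, had 436, 395, 390.0 and 403 CPM with antibody, against 464, 506, 506 and 533 CPM without. The highest antibody library was still below the lowest of the other arm, which was replicate 1 (log2 fold change -0.31 ± 0.052, adjusted p = 0.000442). Yars, which charges tyrosine and whose fragments act as cytokines outside the cell, had 83.8, 76.8, 76.5 and 76.3 CPM with antibody, against 94.0, 95.2, 92.7 and 95.8 CPM without. Antibody replicate 1 was the highest of its arm, and the libraries without antibody were within a narrow band above it (log2 fold change -0.27 ± 0.049, adjusted p = 0.000867). Gars, which charges glycine in both compartments, had 350.3, 333, 326 and 350.5 CPM with antibody, against 371, 410.4, 440.2 and 472 CPM without. The arms were apart, with replicate 1 without antibody nearest to the antibody libraries (log2 fold change -0.32 ± 0.059, adjusted p = 0.00128).

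Iars, the isoleucine enzyme of the multi-synthetase complex, had 233, 231, 231 and 238 CPM with antibody, against 249.6, 282, 286 and 307 CPM without. The antibody libraries were nearly level, and replicate 1 without antibody was again the nearest to them (log2 fold change -0.27 ± 0.053, adjusted p = 0.00223). Lars, the leucine enzyme of the complex, known as a leucine sensor for mTORC1, had 346, 321, 327 and 349 CPM with antibody, against 369.8, 385, 396 and 458 CPM without. Its arms did not overlap, but replicate 4 without antibody lay far above the others (log2 fold change -0.26 ± 0.057, adjusted p = 0.00564). Nars, which charges asparagine and was the most abundant cytosolic member per length, had 597, 548, 571 and 591 CPM with antibody, against 627, 657, 703 and 798 CPM without. Its pattern was that of Lars, with replicate 4 without antibody on top and replicate 1 nearest to the antibody arm (log2 fold change -0.27 ± 0.061, adjusted p = 0.00613). Aars, which charges alanine and edits mischarged tRNA, averaged 268 ± 8.77 CPM with antibody and 307 ± 17.6 CPM without (SD, n = 4 each; log2 fold change -0.19 ± 0.049, adjusted p = 0.0154). This was the smallest fall of the 9. The last 1326 bases of the transcript Aars-201 are shared at 100% identity with the protein-coding gene Exosc6. Both lie in the same orientation, so the Aars count may hold reads of Exosc6, which was not tested.

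Promoters of some of these genes hold a short element that ATF4 is known to bind together with C/EBP factors, the C/EBP-ATF response element, whose core was searched as TGATGNAA on both strands. RefSeq windows of 300 bases, 250 before to 50 after the start of the gene, were at hand for 28 of the 37 members. A match stood in 5 of the 13 cytosolic genes with a window, Yars, Iars, Gars, Aars and Tars. It stood in 0 of the 15 mitochondrial genes with a window, of which Aars2 has 2. Counted by window, 3.97% of 32851 mouse windows hold one. Of the 6 cytosolic genes that fell and have a window 4 held a match, and of the 7 others 1 did. Counted from the RefSeq start of the gene, the matches began at 4 in Yars, 8 in Iars, -30 in Gars, -112 and 10 in Aars and -15 in Tars. The deposited annotation starts Aars at 111033144 and Yars at 129189760, both upstream of the stretches printed below. The stretches below (RefSeq, GRCm38.p6, 5′ to 3′ on the strand of the gene, ending 30 bases after the start) are shown because they carry these matches, which stand in capitals and read TTNCATCA where the element lies on the other strand. Asns, asparagine synthetase, is a textbook target of ATF4 and is shown beside them, and Yars2, the mitochondrial counterpart of Yars, is shown as a window with no match. Mars and Sars, which fell, have a window with no match. Of 13 genes with a window in the GCN2 and ATF4 list described below, 4 held a match. Of the 8 of these 13 that fell 3 did, Asns among them. A match is a run of letters and no measure of binding.
Yars (chr4:129189843-129189932, plus strand): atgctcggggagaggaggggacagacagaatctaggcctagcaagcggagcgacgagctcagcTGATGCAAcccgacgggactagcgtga
Iars (chr13:49682070-49682159, plus strand): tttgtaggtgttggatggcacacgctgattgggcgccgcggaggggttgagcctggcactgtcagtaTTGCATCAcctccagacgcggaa
Gars (chr6:55037941-55038030, plus strand): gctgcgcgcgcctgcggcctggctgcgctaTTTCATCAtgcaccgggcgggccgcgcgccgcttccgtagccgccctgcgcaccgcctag
Aars (chr8:111033720-111033871, plus strand): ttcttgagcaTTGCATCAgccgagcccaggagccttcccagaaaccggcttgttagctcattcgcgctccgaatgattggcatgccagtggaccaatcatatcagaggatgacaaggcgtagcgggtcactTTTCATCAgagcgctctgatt
Tars (chr15:11399629-11399718, minus strand): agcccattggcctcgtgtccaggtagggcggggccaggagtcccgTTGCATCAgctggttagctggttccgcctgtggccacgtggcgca
Asns (chr6:7693180-7693269, minus strand): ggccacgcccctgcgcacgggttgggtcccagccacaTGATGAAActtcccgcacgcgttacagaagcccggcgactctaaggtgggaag
Yars2 (chr16:16302905-16302994, plus strand): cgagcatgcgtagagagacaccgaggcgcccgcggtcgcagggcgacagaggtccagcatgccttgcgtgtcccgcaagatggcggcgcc

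The other 11 cytosolic genes did not pass the test. Farsb, the beta subunit of the phenylalanine enzyme, came nearest, with arms that did not overlap and a log2 fold change of -0.15 ± 0.050 (adjusted p = 0.0632). Rars, the arginine enzyme of the complex, stood at -0.20 ± 0.068 on the log2 scale (adjusted p = 0.0698), and replicate 4 without antibody stood at 299.9 CPM where the other 3 libraries of that arm were at 222 to 249 CPM. Tars, the threonine enzyme, had 243, 228, 239 and 231 CPM with antibody, against 233, 251, 275 and 292 CPM without. Only replicate 1 without antibody lay within the range of the antibody arm (log2 fold change -0.16 ± 0.058, adjusted p = 0.0914). Before adjustment its 95% interval lay below 1, with folds between 0.823 and 0.972.

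Kars, which charges lysine in both compartments from alternative transcripts of 1 gene, had 249, 248, 259 and 232 CPM with antibody, against 241, 288, 281 and 256 CPM without. The arms overlapped (log2 fold change -0.11 ± 0.055, adjusted p = 0.275). Gene counts do not separate its cytosolic form and its mitochondrial one, nor those of Gars. Eprs, the enzyme for both glutamate and proline, differed by -0.10 ± 0.059 on the log2 scale (adjusted p = 0.336). Vars, Farsa, Dars and Wars, for valine, phenylalanine, aspartate and tryptophan, lay between -0.06 and -0.05, with adjusted p-values of 0.552 to 0.654. Wars is best known as a gene that interferon induces.

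The largest p-values of the class belonged to Qars and Hars. Qars, the glutamine enzyme, had 148, 145, 142 and 142 CPM with antibody, against 138, 142, 157 and 149.9 CPM without. The antibody libraries lay within the range of the others (log2 fold change -0.02 ± 0.049, adjusted p = 0.83). Hars, the histidine enzyme, had 135, 133, 129 and 133 CPM with antibody, against 127, 131, 132 and 137 CPM without. Here too one arm lay within the other (log2 fold change 0.01 ± 0.045, adjusted p = 0.948), and its fold had a 95% interval of 0.942 to 1.07, which leaves out a fall of the size seen in Cars. The interval for Qars was 0.917 to 1.05.

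Genes that fell stood both inside and outside the multi-synthetase complex. Of its 8 synthetases, Eprs, Iars, Lars, Mars, Qars, Rars, Kars and Dars, 3 fell, with a median log2 fold change of -0.15. Of the 12 cytosolic synthetases outside it 6 fell, with a median of -0.18. Over all tested genes 3.87% fell. Both groups held genes near 0, Qars inside and Hars outside. The difference between the groups was not tested. Of the scaffold proteins of the complex, Aimp1, Aimp2 and Eef1e1, 0 of 3 were called by edgeR, 1 had an unadjusted p under 0.05, and DESeq2 and limma voom called 0, while the edgeR fit without replicates 1 and 4 of the no-antibody arm called 1 lower. That last fit called 2263 genes in all. The median of the 3 scaffold genes was -0.08 in the main fit.

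Summed over the class, cytosolic synthetases took 4847, 4590, 4623 and 4737 CPM with antibody, against 4934, 5322, 5487 and 5823 CPM without. The arms did not overlap, but replicate 1 without antibody came close to antibody replicate 1. The means were 4699 ± 117 and 5392 ± 370 CPM (SD, n = 4 each), a ratio of 0.872. Mitochondrial synthetases other than Lars2 took 559, 545, 549.9 and 565 CPM with antibody, against 577, 581, 579 and 553 CPM without, a ratio of 0.969 with overlapping arms. With Lars2 the mitochondrial sum was 1494 ± 27.0 CPM with antibody and 1323 ± 74.1 CPM without, so that 1 gene turned the direction of the sum.

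**Figure D3:**
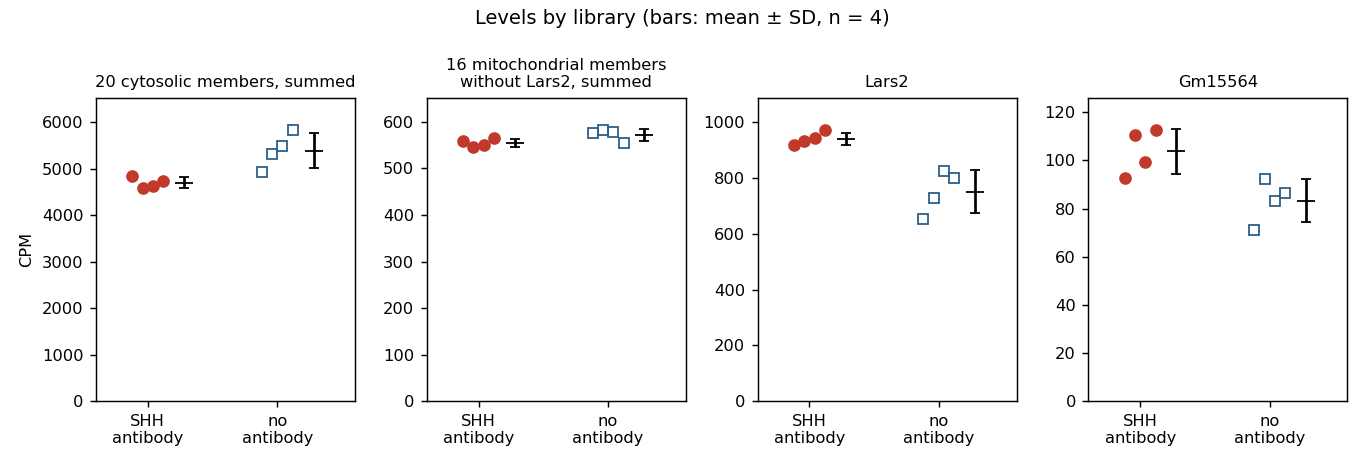
CPM in each library, with SHH antibody (filled circles) left of no antibody (open squares) and bars for mean ± SD (n = 4), for the summed cytosolic genes, the 16 mitochondrial genes without Lars2, Lars2 and Gm15564. The cytosolic sum averages 4699 CPM with antibody and 5392 CPM without, while Lars2 and Gm15564 are higher with antibody in all 4 libraries.

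Lars2, the mitochondrial leucine enzyme at chr9:123366940-123462664 on the plus strand, was the one synthetase that rose. It had 917, 931, 941 and 969 CPM with antibody, against 651, 728, 823 and 799.7 CPM without. Every antibody library was above every other library, and replicate 1 without antibody was the lowest of all. The log2 fold change was 0.32 ± 0.060 with an adjusted p of 0.00109. Its level was far from that of its class: 243 RPKM with antibody and 192.7 RPKM without, where the second mitochondrial gene had 19.7 RPKM and 21.1 RPKM. A stretch of 72 bases in the 3′ part of its transcript (positions 3278 to 3349 of Lars2-201) is shared at 98.6% identity and in the same orientation with Gm15564, an RNA gene annotated as antisense at chr16:35966752-35983230. That gene had 92.8, 110.7, 99.5 and 112 CPM with antibody, against 71.0, 92.1, 83.3 and 86.3 CPM without. It was higher in every antibody library as well (log2 fold change 0.32 ± 0.070, adjusted p = 0.00483). The sources used here do not say how reads that match both genes were counted, and their part in the Lars2 result was not tested.

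The other 16 mitochondrial genes did not pass the test. Aars2, for alanine, had 12.8, 12.5, 13.4 and 10.7 CPM with antibody, against 15.1, 14.6, 16.2 and 13.1 CPM without. Only replicate 4 without antibody fell within the range of the antibody libraries (log2 fold change -0.25 ± 0.095, adjusted p = 0.112). Its fold change was larger in size than that of Aars, which passed with a standard error of 0.049. Vars2, for valine, had 110.1, 101, 108 and 111 CPM with antibody, against 123, 119, 116 and 106 CPM without, with replicate 4 without antibody inside the antibody range (log2 fold change -0.11 ± 0.053, adjusted p = 0.233). Sars2, for serine, had 11.2, 10.2, 11.8 and 11.9 CPM with antibody, against 12.8, 13.4, 12.1 and 12.9 CPM without. Its arms did not overlap but lay close (log2 fold change -0.18 ± 0.091, adjusted p = 0.26).

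Pars2, for proline, and Fars2, for phenylalanine, had the largest p-values. Pars2 had 8.49, 6.80, 8.56 and 7.85 CPM with antibody, against 7.17, 7.81, 7.96 and 8.69 CPM without. The arms covered the same range (log2 fold change -0.00 ± 0.114, adjusted p = 0.996). Its 95% interval for the fold, 0.847 to 1.18, held the fall seen in Aars (0.875) but not that in Lars (0.835) or the larger falls. Fars2 had 9.52, 9.91, 11.2 and 11.5 CPM with antibody, against 10.9, 10.02, 10.6 and 11.5 CPM without, again with overlapping arms (log2 fold change -0.04 ± 0.099, adjusted p = 0.882). The remaining mitochondrial genes, Yars2, Nars2, Rars2, Ears2, Cars2, Wars2, Tars2, Hars2, Mars2, Iars2 and Tarsl2, had log2 fold changes between -0.12 for Nars2 and 0.09 for Yars2, and adjusted p-values of 0.504 or more.

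Tarsl2 is set among the mitochondrial genes by its symbol alone, since its product is a second threonine enzyme of the cytosol. It had 18.7, 18.9, 17.7 and 19.1 CPM with antibody, against 15.7, 18.6, 20.2 and 18.4 CPM without. The antibody libraries lay within the range of the others (log2 fold change 0.03 ± 0.083, adjusted p = 0.868). Tars2, the threonine enzyme of mitochondria, had 79.9, 78.8, 78.8 and 77.1 CPM with antibody, against 83.0, 80.6, 81.4 and 77.2 CPM without, close to level in all libraries (log2 fold change -0.03 ± 0.047, adjusted p = 0.735). With Tarsl2 moved to the cytosolic class the medians were -0.16 over 21 cytosolic genes and -0.04 over 16 mitochondrial genes, and the counts of genes called stayed at 9 lower and 1 higher.

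For amino acids with an enzyme in each compartment, the cytosolic and mitochondrial genes could be set side by side in 17 pairs. Eprs and Fars2 stand in more than 1 pair, so the pairs are not independent. The cytosolic log2 fold change was below the mitochondrial one in 14 of the 17. The exceptions were alanine, valine and tryptophan, with differences of 0.06, 0.05 and 0.00, cytosolic minus mitochondrial. Taking the ratio of cytosolic to mitochondrial RPKM in each library, the antibody libraries were all below the others in 5 pairs, all above in 0 and overlapping in 12.

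The 5 pairs were those of leucine, methionine, tyrosine, cysteine and isoleucine. Leucine had by far the largest difference, since the members moved in opposite directions: Lars over Lars2 was 0.380, 0.347, 0.350 and 0.362 with antibody, against 0.572, 0.532, 0.484 and 0.576 without. It was also the only one of the 5 pairs in which the mitochondrial transcript was the more abundant per length. Methionine, Mars over Mars2, had a ratio of 7.05 ± 0.50 with antibody and 9.15 ± 0.78 without (SD, n = 4 each). Tyrosine, Yars over Yars2, had 1.27 ± 0.090 and 1.63 ± 0.139, and here antibody replicate 1 at 1.39 came near replicate 1 without antibody at 1.43. Cysteine, Cars over Cars2, had 4.33 ± 0.21 with antibody and 5.30 ± 0.40 without. Isoleucine, Iars over Iars2, had 2.92 ± 0.083 with antibody and 3.45 ± 0.235 without. The 3′ part of Iars2 shares 2034 bases with Rab3gap2 on the opposite strand, and Iars shares 1656 bases at 96.0% identity with the processed pseudogene Gm4849, so both counts may hold reads of another gene.

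**Figure D4:**
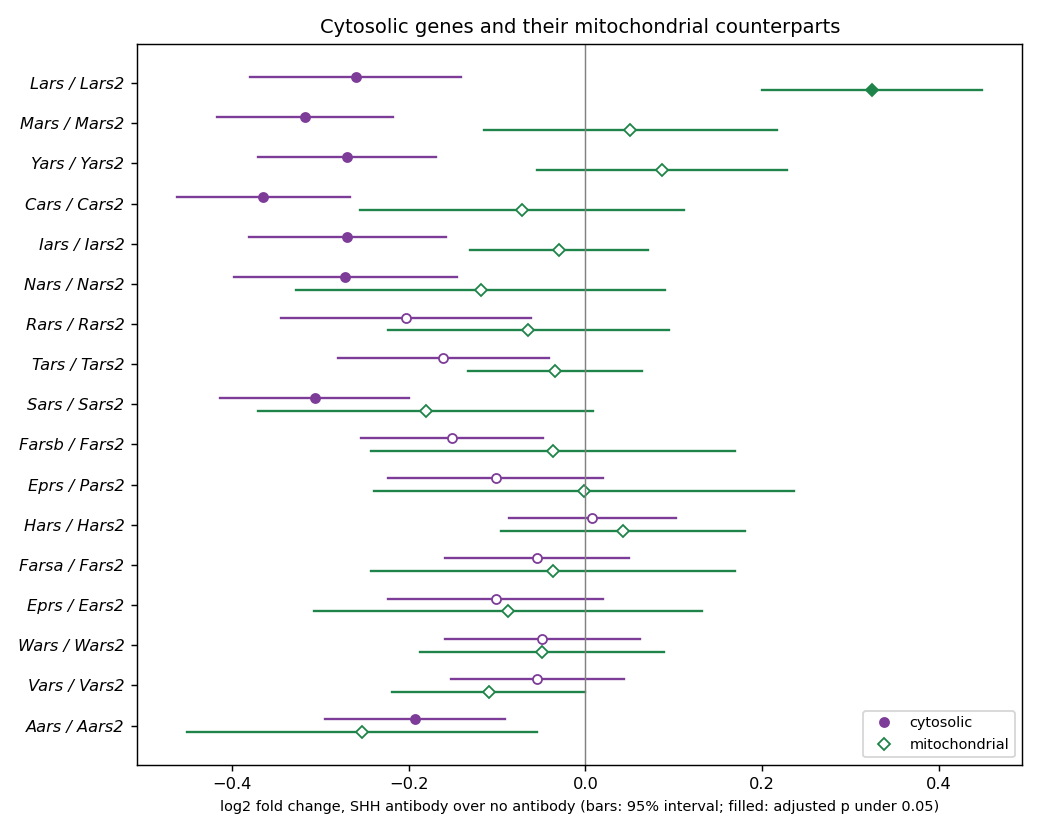
Log2 fold change, SHH antibody over no antibody, of the cytosolic gene (purple circle) and the mitochondrial gene (green diamond) of each of the 17 pairs, with bars for the 95% interval and filled symbols for an adjusted p under 0.05. The purple symbol lies left of the green one in 14 of the 17 pairs, and the leucine pair at the top has intervals on opposite sides of 0.

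In the lists of neighbouring steps 0 genes passed edgeR's test, where 3.87% of all tested genes fell and 4.53% rose. At these shares, 0 calls in lists of 4 to 10 genes do not set them apart from other genes. Of 10 tRNA maturation genes 0 were called, with 3 at an unadjusted p under 0.05 and a median log2 fold change of -0.01. Of 6 cytosolic elongation factors 0 were called, with 2 at an unadjusted p under 0.05 and a median of -0.07, and of 4 mitochondrial elongation factors 0 were called, with 0 at an unadjusted p under 0.05 and a median of -0.04. For the 4 genes of the mitochondrial tRNA-Gln amidotransferase and Met-tRNA formylation these counts were 0 and 0 (median -0.07), and for 4 editing enzymes outside the synthetases 0 and 0 (median 0.07). DESeq2 and limma voom called 0 in each of these lists. Without replicate 1 of the no-antibody arm, edgeR called 2 tRNA maturation genes and 1 cytosolic elongation factor lower, with 1485 genes called in all. The fit without replicates 1 and 4 together called 2 and 3 lower, with 2263 genes called in all.

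Most genes listed for the GCN2 and ATF4 axis, which controls many cytosolic synthetases in amino acid shortage, fell as well. Of 14 genes 9 fell, 0 rose and 5 did not pass, where 3.87% of all tested genes fell and 4.53% rose. Their median log2 fold change was -0.35. The list was chosen with earlier results of these libraries known, so it is no independent evidence of the direction. Trib3, a pseudokinase that ATF4 induces and that restrains it, had 34.0, 26.7, 27.4 and 30.3 CPM with antibody, against 44.3, 52.6, 54.6 and 59.6 CPM without (log2 fold change -0.84 ± 0.083, adjusted p = 9.93e-07). Chac1, which degrades glutathione, showed a log2 fold change of -0.75 ± 0.076 (adjusted p = 1.25e-06), Asns of -0.51 ± 0.067 (adjusted p = 2.53e-05), and the transcription factor Atf5 of -0.59 ± 0.077 (adjusted p = 2.64e-05). In all 4 the antibody libraries lay below the others. The 4, taken by smallest p, fell more than any of the 9 synthetases, where the largest fall was -0.36. Among the other axis genes that fell, Ddit3 stood at -0.57. Sesn2, Eif4ebp1, Cebpb and Atf4 stood at -0.37, -0.36, -0.34 and -0.31, close to or within the range of the synthetases that fell. Eif2ak4, which encodes GCN2 itself, and Gcn1l1, its activator, did not pass, at 0.12 (adjusted p = 0.256) and -0.02 (adjusted p = 0.864).

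The count of cytosolic genes called rested in part on single libraries. It was 14 without replicate 1 of the no-antibody arm, with a median of -0.23, since Farsb, Rars, Tars, Kars and Eprs then passed, and 13 without its replicates 1 and 4 together. Without replicate 4 alone it was 9, with a median of -0.12. On the log2 RPKM scale 6 of the 9 passed and Lars, Nars and Aars did not, and Aars also missed when antibody replicate 2 (adjusted p = 0.0629), antibody replicate 3 (0.0906) or replicate 3 without antibody (0.0559) was left out. Cars, Mars, Sars, Yars, Gars, Iars and Lars2 passed in all 18 alternative fits.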

How the data were processed

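Per the labels' protocols, strand-specific polyA libraries of the sorted cancer cells were read in pairs. Per the submitters' processing notes, CASAVA 1.8.2 and TopHat2 2.0.9 were used with GRCm38; the counter, annotation and strand setting: not given in the sources used here. Raw counts per gene and RPKM of the 8 libraries were deposited by the authors. Over 11124 genes the RPKM equalled the count over 1 gene length and the library's total.

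The test was edgeR's quasi-likelihood F test (version 4.0.16, R 4.3.3) on counts filtered by filterByExpr and scaled by TMM, with the arm as the only term and Benjamini-Hochberg adjustment over all 13626 genes kept. A gene was called at an adjusted p under 0.05. CPM values use TMM-scaled totals, except marker sums, which use plain totals. Standard errors come from the F statistic and include the spread between libraries. The test was run on simulated counts with known folds. These held no library that stands apart from its arm, so the simulation does not cover that case. No p was computed over the members as a set.

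The members, lists, classes and alternatives were chosen with earlier results of these data known. Values in every library are given for the 8 cytosolic and 4 mitochondrial members with the smallest p, the 2 of each class with the largest, Tarsl2 and its counterparts, Gars and Kars. Of other lists, called members are named, up to 4 by smallest p. Ddit3, Gm15564, Eif2ak4, Gcn1l1 and the other genes named outside this rule were taken up after their values were seen. One allele of the genotype and 1 other gene are not reported here. Transcripts were compared with blastn 2.17.0 (at least 50 shared bases at 95% identity or more).

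Alternatives were scaling by upper quartile or RLE, a stricter filter (at least 1 CPM in 4 libraries) or none, the replicate number as a block, DESeq2 1.42.0, limma 3.58.1 voom, limma on log2(RPKM + 1) and log2(RPKM + 0.1), leaving out each library in turn, leaving out replicates 1 and 4 without antibody together, and Tarsl2 as cytosolic.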

Additional observations from a re-analysis of the deposited data

Results flagged for a closer look

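A library lay far from the others of its arm in 3 of 78 sets of 4 values checked, and chance alone flags about 1 in 20 such sets. Mars stood at 140.1 CPM in antibody replicate 2, where the other antibody libraries were at 155 to 157 CPM, and the libraries without antibody were all above these. Yars stood at 83.8 CPM in antibody replicate 1, against 76.3 to 76.8 CPM in the other antibody libraries. Yars2 stood at 34.7 CPM in antibody replicate 4, against 32.0 to 32.3 CPM in the other antibody libraries.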

How the results depend on the processing

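Cytosolic genes called numbered 8 to 14 when 1 library was left out, 13 without replicates 1 and 4 of the no-antibody arm together, 11 with no filter on low counts and 6 on either RPKM scale; their median stayed below 0 throughout, at -0.23 to -0.12 with 1 library left out. Over all genes, 675 were called on log2(RPKM + 1), 670 on log2(RPKM + 0.1), 679 to 1485 with 1 library left out and 2263 without both libraries, where 1 mitochondrial gene, Aars2, fell (adjusted p = 0.0434). The mitochondrial median was -0.0800 there and -0.0757 to -0.0278 with 1 library left out. Lars2 was called higher in all 18 fits, and no other mitochondrial gene was.

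The sign turned only in genes that did not pass. Pars2 had 0.00305 with no filter, 0.00253 with the replicate block, 0.00683 and 0.00854 on the RPKM scales, 0.00318 without both libraries and -0.0518 to 0.0658 with 1 left out. Tarsl2 had -0.0677 without both and -0.0347 to 0.0846 with 1 left out, and Fars2 0.0283 and -0.0825 to 0.00542. With 1 library left out, Qars had -0.0550 to 0.00737 and Hars -0.0107 to 0.0282. The cause was not tested.

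No pairing by replicate number was seen in the counts: deviations of same-numbered libraries correlated at -0.03 to 0.01, and in 0 of 4 was the own number best. With 4 libraries in each arm, this cannot tell whether same-numbered cultures were set up together. With the replicate block, 1005 genes and 10 cytosolic members were called, Rars being added (adjusted p = 0.0462). Counts of 78 or more limit the mitochondrial class, where falls of the cytosolic size need not be detectable. No control antibody is named, and protein levels were not analysed here.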
